A study of Mus musculus with 4 samples.

Results

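The genes described here are the collagen genes of primary mouse microglia cultures, with and without lysophosphatidylserine (LysoPS). They were taken by name, as the gene models whose symbol has the form of a collagen chain (Col, type, a, chain) and whose counts summed to 40 or more over the 4 libraries. Of 44 gene models with such a name 41 met that minimum, out of 51826 gene models in all. There were 11 genes of fibrillar collagens, 6 of the basement membrane collagen type IV and 24 of other types. The study compared 2 groups of 2 libraries, as each library is labelled, although the treatment protocol speaks of LysoPS for a single replicate. Mock cultures were untreated C57BL/6 cells, and LysoPS cultures were the same kind of cells exposed for 4 h to LysoPS, a lipid ligand of the receptor GPR34. The descriptions of all 4 libraries begin with WT, read here as wild type. The cells were shaken off mixed glial cultures grown for 2 weeks from newborn brains stripped of their meninges. The labels do not say that replicates came from different animals or cultures. The p-values then measure only the spread between these libraries, which may be technical.

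Collagens are secreted proteins whose chains wind around each other into a rope-like helix rich in glycine and proline. Fibrillar collagens assemble into the fibrils of connective tissue, type IV forms the sheet-like scaffold of basement membranes, and the other types decorate fibrils, anchor membranes or span the plasma membrane. In the brain they are known mainly from the meninges, from fibroblasts around vessels and from the vessel wall, and less from microglia, which are macrophages.

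Library totals ranged from 30001098 to 45193959 counts, and all 41 collagen genes passed the filter on low counts. Normalised read counts are CPM on TMM-scaled library sizes. Differences are log2 fold changes of LysoPS over mock with their standard error (SE), from edgeR's quasi-likelihood test, with Benjamini-Hochberg adjustment across all 19057 genes tested and 0.05 as the threshold. Levels of different genes are compared only by the deposited TPM, which is scaled for transcript length. The smallest p-value that an exact permutation test of 2 against 2 libraries can give is 0.333, and summed values are given without a test. In these bulk samples, fewer cells of a type and less RNA per cell cannot be told apart.

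Collagen transcripts were abundant in these cultures and dominated by the chains of types I and III. The 41 genes took 1.53% and 1.54% of all counts in mock replicates 1 and 2 and 1.34% and 1.35% in LysoPS replicates 1 and 2. Both LysoPS values lay below both mock values, and replicates of a group differed by far less than the groups. These are shares of the raw totals. The TMM factors were 1.03 and 1.04 in mock replicates 1 and 2 and 0.966 and 0.968 in LysoPS replicates 1 and 2. On the TMM-scaled sizes used for CPM, the groups therefore lie closer together. By deposited TPM the 41 genes summed to 5741 ± 87.3 in mock and 4778 ± 174 after LysoPS (SD, n = 2). Col1a1, Col1a2 and Col3a1 together made up 59.1% ± 0.869 of the collagen TPM in mock and 59.1% ± 0.766 after LysoPS. The share of the fibrillar genes was 67.3% ± 0.888 in mock and 69.4% ± 0.664 after LysoPS. The type IV genes went from 14.6% ± 0.486 to 11.5% ± 0.541 of the collagen TPM, with both LysoPS libraries below both mock libraries.

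**Figure D1:**
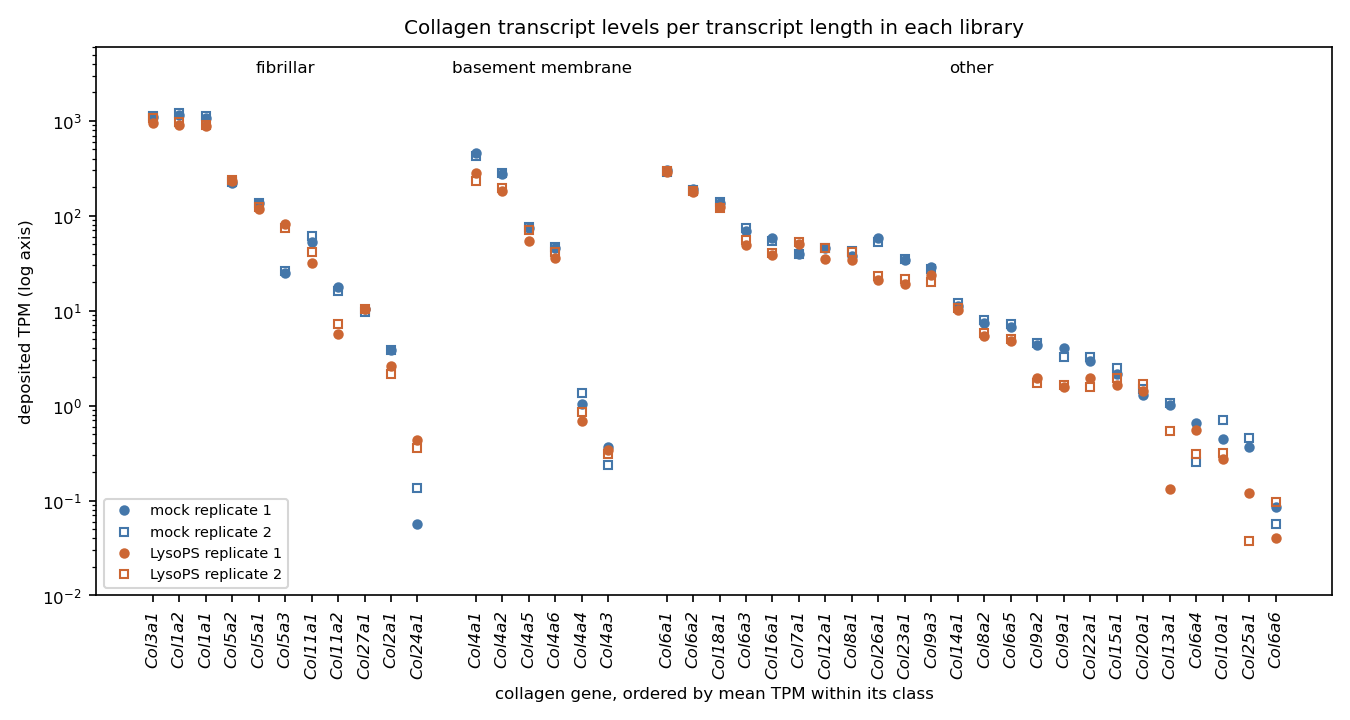
Deposited TPM (log axis) of the 41 collagen genes in each library, grouped by class and ordered by mean TPM, with circles for replicate 1 and squares for replicate 2. Col3a1, Col1a2 and Col1a1 lead in every library, while Col24a1, Col25a1 and Col6a6 lie under 1 TPM.

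In mock the order of levels per transcript length began with Col1a2 (1181 ± 44.7 TPM), Col3a1 (1112 ± 21.9 TPM) and Col1a1 (1099 ± 34.8 TPM; SD, n = 2), and the last 2 of these did not differ beyond their spread. Col4a1 followed at 439 ± 22.95 TPM, then Col6a1 (294 ± 8.33 TPM) and Col4a2 (278 ± 5.27 TPM). At the low end, Col6a6 had a mean of 0.0712 TPM and Col24a1 one of 0.0961 TPM in mock. The gene just inside the count minimum was Col6a6 with 47 counts over the 4 libraries, and the one just outside was Col17a1 with 26. Col19a1 had 12 counts and Col28a1 had 9.

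After LysoPS 18 of the 41 collagen genes (43.9%) differed from mock, where 25.5% of all tested genes did. Of these 4 were higher (9.76%, against 12.8% of all tested genes) and 14 were lower (34.1%, against 12.6%). The median log2 fold change over the 41 genes was -0.16, and over all tested genes it was -0.01. Both LysoPS libraries lay below both mock libraries for 22 collagen genes and above them for 8, 30 without overlap in all. Of all tested genes 34.5% lay below and 32.5% above, 67% without overlap in all. Many collagen genes are strongly expressed, and among genes with at least 5 CPM in 2 libraries, where the background was 34.3%, 17 of 32 collagen genes were called. A gene can reach that level in 1 group alone, as Col9a1 and Col9a2 did in mock. Membership of this subset therefore depends in part on the change itself. Changes were mostly modest, and 16 of the 41 genes moved by less than 1.2-fold in either direction. With 1.5-fold as the null hypothesis, 3 collagen genes were called where 5.58% of all tested genes were, a share near the background. Col5a3 was higher, against 3.58% of all tested genes, and Col26a1 and Col9a2 were lower, against 2% of all tested genes. In fits without 1 mock library the spread within groups came from the LysoPS pair alone, and fewer collagen genes were called. Without mock replicate 1 there were 2 higher and 4 lower collagen genes, and without mock replicate 2 there were 2 and 6. The background fell as well, to 11.2% and 11.1% of tested genes. By class, without mock replicate 1 or 2, there was 1 higher and 1 lower fibrillar gene in either case, there were 0 and 1 lower type IV genes, and there were 3 and 4 lower genes of other types. In all 4 fits that left out 1 library, 6 genes kept their call, namely Col5a3, Col7a1, Col11a2, Col9a2, Col23a1 and Col26a1. They also kept it with the other scaling, filters and tests, apart from the 1.5-fold null.

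**Figure D2:**
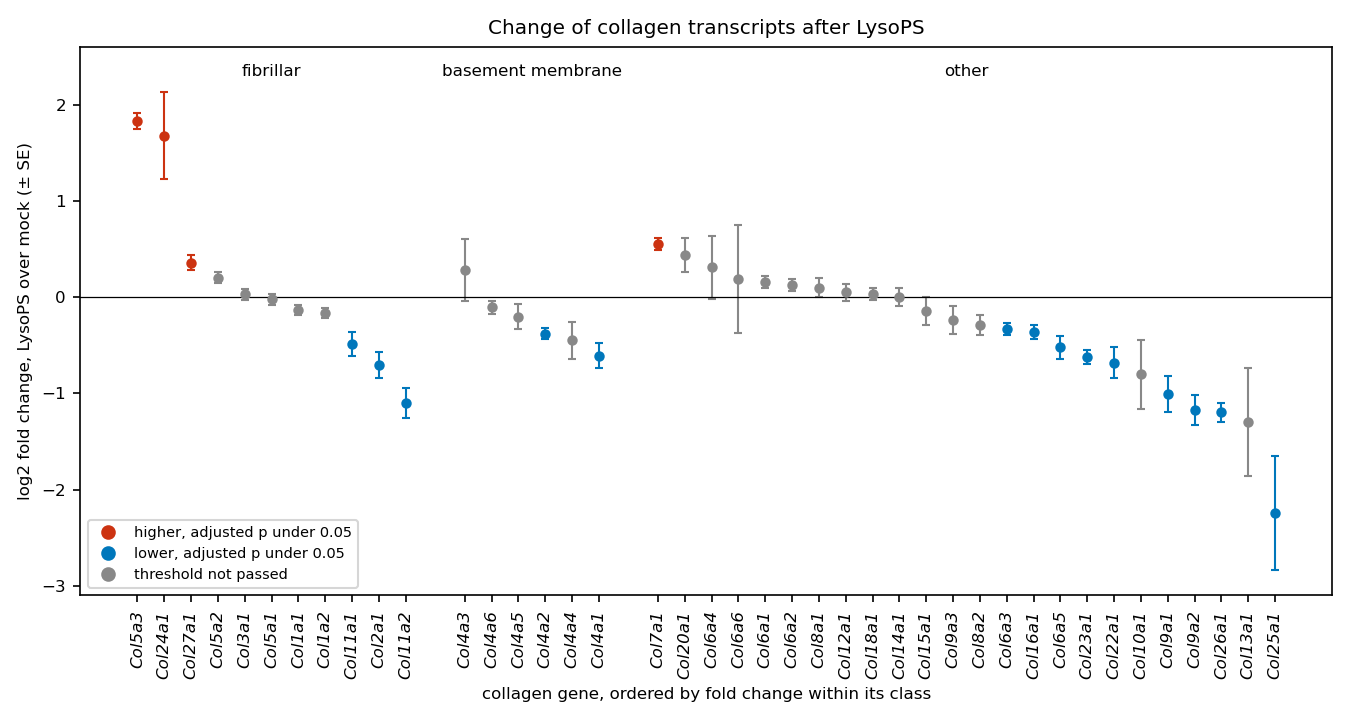
Log2 fold change of each collagen gene after LysoPS (points; error bars are SE from the fit), grouped by class, with genes past an adjusted p of 0.05 in colour. The highest values are those of Col5a3 (1.83) and the barely expressed Col24a1 (1.68), and lower genes occur in each of the 3 classes.

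The major fibrillar chains did not pass the test by counts, although some other settings called the type I chains lower. Type I collagen, the main fibril of skin, bone and tendon, is built from the products of Col1a1 and Col1a2. Col1a1 stood at 2937 and 2978 CPM in mock and 2732 and 2649.5 CPM after LysoPS (log2 fold change -0.14 ± 0.051 SE, adjusted p = 0.116). Col1a2 stood at 2783 and 2812 CPM in mock and 2476 and 2519.6 CPM after LysoPS (-0.16 ± 0.050, adjusted p = 0.0704). For both chains the 2 LysoPS libraries lay below the 2 mock libraries. Col1a2 was called lower with the stricter filter (adjusted p = 0.0443). By limma on log2(TPM + 1) both were called lower, Col1a1 with -0.31 (adjusted p = 0.0189) and Col1a2 with -0.34 (adjusted p = 0.0258). The ratio of Col1a1 to Col1a2 by TPM was 0.931 ± 0.00580 in mock and 0.948 ± 0.0401 after LysoPS (SD, n = 2), and the groups overlapped. Type III collagen, the fibril of soft tissues and vessel walls, comes from Col3a1 alone. Col3a1 stood at 2781 and 2777 CPM in mock and 2758 and 2915 CPM after LysoPS (0.03 ± 0.055, adjusted p = 0.730), and the groups overlapped. A model that shares 141 bases with Col3a1 on the same strand held 12633 counts against its 425504, so some reads may have been split. On the TPM scale, whose median over all tested genes was -0.14, Col3a1 had a negative difference of -0.14.

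Col5a3 was the collagen gene with the largest rise. It encodes a chain of type V collagen, a minor fibrillar type that seeds fibrils and limits their diameter. Col5a3 stood at 68.0 and 64.3 CPM in the mock libraries and at 247 and 223 CPM in the LysoPS libraries. All LysoPS values were over 3 times the mock values, and the log2 fold change was 1.83 ± 0.083 SE (adjusted p = 0.000457). Its partner chains did not pass the test. Col5a1 stood at 539 and 521 CPM in mock and 519 and 525 CPM after LysoPS (-0.02 ± 0.056, adjusted p = 0.804). Col5a2 stood at 670.1 and 668 CPM in mock and 746 and 791 CPM after LysoPS (0.20 ± 0.059, adjusted p = 0.0624), with both LysoPS libraries above both mock libraries, and it was called higher without LysoPS replicate 1 (adjusted p = 0.0469) and by the DESeq2 test (adjusted p = 0.0307). By TPM the ratio of Col5a3 to Col5a1 went from 0.185 ± 0.00723 in mock to 0.650 ± 0.0653 after LysoPS (SD, n = 2), so Col5a3 remained the least abundant of the type V chains in both groups.

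The 250 bases upstream of the start site are shown for 2 higher genes, Col5a3 and Col7a1, and 2 lower genes, Col23a1 and Col6a3. These had the smallest p-values in each direction among genes of at least 10 TPM whose RefSeq start (GRCm38.p6) equals that of the file's gene model and whose window holds no annotated exon. They were chosen after their values were seen. Capitals mark CCAAT and GGGCGG on either strand, known as the CCAAT box and the GC box. TATAAA, the AP-1 motif TGANTCA and the NF-kappaB motif, searched on both strands, had no match in these 4 windows.
Col5a3 (chr9:20815068-20815317, minus strand): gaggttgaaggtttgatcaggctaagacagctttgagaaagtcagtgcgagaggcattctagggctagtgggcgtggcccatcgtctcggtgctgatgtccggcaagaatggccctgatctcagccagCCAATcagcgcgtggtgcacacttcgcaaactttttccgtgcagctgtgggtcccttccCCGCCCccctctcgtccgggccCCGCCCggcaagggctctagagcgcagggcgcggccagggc
Col7a1 (chr9:108953336-108953585, plus strand): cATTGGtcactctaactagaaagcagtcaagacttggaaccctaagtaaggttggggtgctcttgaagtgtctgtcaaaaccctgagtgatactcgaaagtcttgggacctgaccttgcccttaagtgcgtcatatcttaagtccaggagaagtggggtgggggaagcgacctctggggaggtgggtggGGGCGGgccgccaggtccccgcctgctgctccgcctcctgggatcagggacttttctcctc
Col23a1 (chr11:51289670-51289919, plus strand): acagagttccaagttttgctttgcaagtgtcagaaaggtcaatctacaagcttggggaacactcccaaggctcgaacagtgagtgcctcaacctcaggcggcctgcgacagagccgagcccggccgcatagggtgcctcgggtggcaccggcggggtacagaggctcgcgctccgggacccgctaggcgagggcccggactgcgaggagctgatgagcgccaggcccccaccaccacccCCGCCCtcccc
Col6a3 (chr1:90843972-90844221, minus strand): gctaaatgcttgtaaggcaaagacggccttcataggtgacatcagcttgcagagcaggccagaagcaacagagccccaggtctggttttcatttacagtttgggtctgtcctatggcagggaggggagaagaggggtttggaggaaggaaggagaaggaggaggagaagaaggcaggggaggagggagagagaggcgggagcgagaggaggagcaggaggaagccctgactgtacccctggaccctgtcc
Col5a3 held 1 CCAAT and 2 GGGCGG matches, Col7a1 1 of each, Col23a1 1 GGGCGG and Col6a3 none. RefSeq windows existed for 32 of the 41 collagen genes, and 21 of these held GGGCGG, 12 CCAAT, 4 TATAAA, 1 the AP-1 motif and 6 the NF-kappaB motif. Of all 32851 windows of that length, 32.7% held GGGCGG, 33.8% CCAAT, 12.4% TATAAA, 6.75% the AP-1 motif and 7.25% the NF-kappaB motif. Col9a1, Col6a2 and Col18a1 had more than 1 window, and a match in any of them was counted for the gene. The shares over all windows count windows, not genes. A match is a description of these letters only.

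The genes of types II and XI were lower. Type II is the main cartilage fibril and type XI forms its core. Col11a2 stood at 33.3 and 34.8 CPM in mock and 13.5 and 18.1 CPM after LysoPS, and fell with a log2 fold change of -1.10 ± 0.16 SE (adjusted p = 0.00871). Col11a1 stood at 190.0 and 209.6 CPM in mock and 127 and 158 CPM after LysoPS (-0.49 ± 0.12, adjusted p = 0.0415). Col2a1, at a low level, stood at 7.92 and 8.46 CPM in mock and 5.26 and 4.804 CPM after LysoPS (-0.70 ± 0.13, adjusted p = 0.0195). For each of the 3 genes both LysoPS libraries lay below both mock libraries. The call of Col11a1 was lost, with adjusted p-values of 0.0803 when mock replicate 1 was left out, 0.165 for mock replicate 2 and 0.0623 for LysoPS replicate 1. That of Col2a1 was lost as well, with 0.0753 when mock replicate 1 was left out and 0.117 for mock replicate 2.

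Types XXVII and XXIV, the first a collagen of cartilage and the other of developing bone, were higher. Col27a1 stood at 25.5 and 25.5 CPM in mock and 32.98 and 32.5 CPM after LysoPS (0.36 ± 0.080, adjusted p = 0.0300), and its call was lost with adjusted p-values of 0.159 when mock replicate 1 was left out, 0.172 for mock replicate 2 and 0.0611 for LysoPS replicate 1. By limma on log2(TPM + 1), whose median over all tested genes was -0.14, the difference of Col27a1 was 0.0464 (adjusted p = 0.794). Col24a1 was barely expressed, with 6 and 19 counts in mock and 39 and 42 after LysoPS. It stood at 0.195 and 0.439 CPM in mock and 1.17 and 0.961 CPM after LysoPS (1.68 ± 0.45, adjusted p = 0.0493), and every fit that left out 1 library lost the call (0.166 when mock replicate 1 was left out, 0.0605 for mock replicate 2, 0.141 for LysoPS replicate 1 and 0.0811 for LysoPS replicate 2), as did the DESeq2 test (adjusted p = 0.0573). The transcript length implied by counts and FPKM varied between libraries by 1.46 times for Col24a1, 1.29 times for Col2a1 and 1.25 times for Col11a2. The part of this variation in their values was not tested.

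The most abundant type IV chains were lower after LysoPS. Col4a1 and Col4a2 encode the chains found in nearly every basement membrane, and the other chains have narrower roles in kidney, muscle and nerve. Col4a1 stood at 1387 and 1244 CPM in mock and 967 and 758 CPM after LysoPS, and fell with a log2 fold change of -0.61 ± 0.13 SE (adjusted p = 0.0273). Col4a2 stood at 817 and 812 CPM in mock and 615 and 638 CPM after LysoPS, and fell as well (-0.38 ± 0.055, adjusted p = 0.00919). Groups did not overlap for either gene, but LysoPS replicate 2 lay further below mock for Col4a1 than LysoPS replicate 1 did. The calls were not kept in every fit that left out 1 library. The adjusted p of Col4a1 was 0.0950 when mock replicate 1 was left out. That of Col4a2 was 0.0774 when mock replicate 1 was left out and 0.0688 for mock replicate 2.

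Col4a1 (ENSMUSG00000031502) is annotated in GRCm38 on the − strand at chr8:11198423-11312826, and Col4a2 (ENSMUSG00000031503) on the + strand at chr8:11312805-11449287. The genes are read in opposite directions from a shared start region, and in the deposited models they overlap by 22 bases. Those bases, chr8:11312805-11312826 on the plus strand, are shown because reads from them cannot be told apart between the genes where strand is unknown.
Col4a1 and Col4a2 shared bases: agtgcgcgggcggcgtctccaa
By TPM the ratio of Col4a1 to Col4a2 was 1.58 ± 0.113 in mock and 1.36 ± 0.263 after LysoPS (SD, n = 2), with overlapping groups.

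None of the other 4 type IV chains passed the test. Col4a5 stood at 199 and 215 CPM in mock and 159 and 201 CPM after LysoPS (-0.20 ± 0.13, adjusted p = 0.294), and was called lower without LysoPS replicate 2 (adjusted p = 0.0297). Col4a6, its head-to-head neighbour on chromosome X with 1308 bases between the models, stood at 142 and 142 CPM in mock and 126 and 137 CPM after LysoPS (-0.11 ± 0.072, adjusted p = 0.326). Col4a3 and Col4a4, head to head on chromosome 1 with 71 bases between them, were rare. Col4a3 stood at 1.49 and 0.925 CPM in mock and 1.58 and 1.33 CPM after LysoPS, and Col4a4 at 4.87 and 6.27 CPM in mock and 3.73 and 4.44 CPM after LysoPS. Their log2 fold changes had opposite signs (0.28 ± 0.32 and -0.45 ± 0.19), and neither passed. The negative sign was shared by 5 of the 6 type IV chains, where 9741 of all 19057 tested genes had it. The median of the 6 chains was -0.29.

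**Figure D3:**
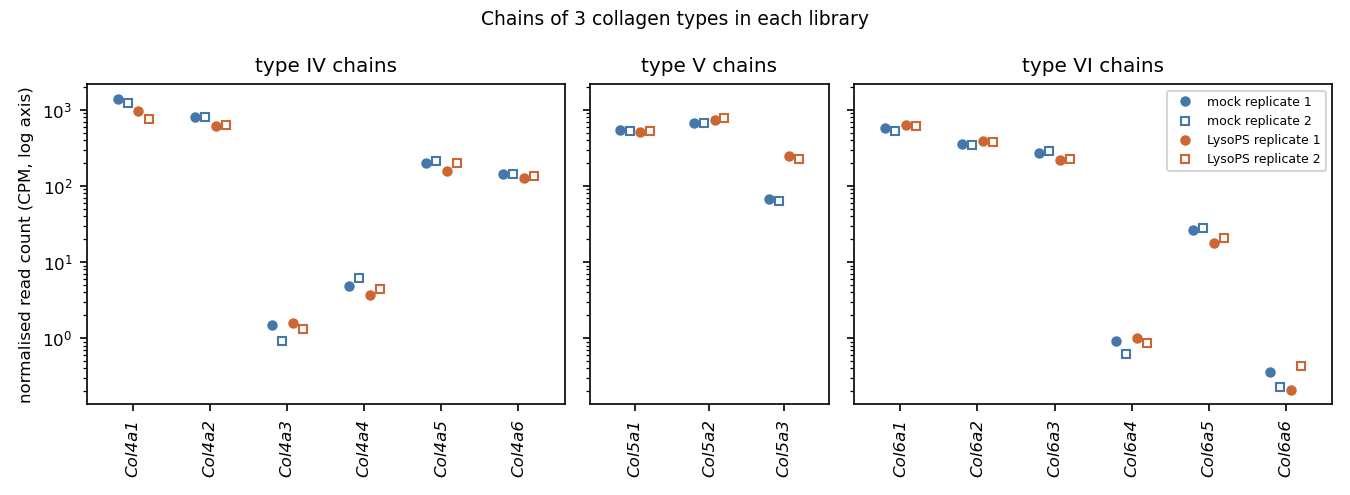
Normalised read counts (CPM, log axis) of the chains of types IV, V and VI in each library, with circles for replicate 1 and squares for replicate 2. Col5a3 is the chain whose LysoPS libraries stand clearly above mock, and the LysoPS libraries of Col4a1, Col4a2 and Col6a3 lie below mock.

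Type VI collagen forms beaded filaments at the border between cells and matrix. Its first 2 chains did not pass the test and Col6a3 was lower. Col6a1 stood at 572 and 534 CPM in mock and 623 and 609.7 CPM after LysoPS (0.16 ± 0.062, adjusted p = 0.131). Col6a2 stood at 359 and 343 CPM in mock and 393 and 376 CPM after LysoPS (0.13 ± 0.062, adjusted p = 0.189). For both genes the LysoPS libraries lay above the mock libraries in CPM. On the TPM scale, whose median over all tested genes was -0.14, their differences were -0.02 and -0.05. Col6a3 stood at 273 and 288 CPM in mock and 221 and 223 CPM after LysoPS, and fell (-0.34 ± 0.062, adjusted p = 0.0181). By TPM the ratio of Col6a3 to Col6a1 was 0.246 ± 0.0198 in mock and 0.181 ± 0.0110 after LysoPS (SD, n = 2), and the groups did not overlap. Col6a5, one of the chains that can take the place of Col6a3, stood at 26.8 and 28.4 CPM in mock and 17.6 and 20.8 CPM after LysoPS (-0.52 ± 0.12, adjusted p = 0.0301), and its implied length differed between libraries by 1.24 times. Col6a4 and Col6a6 were near the limit of detection, with mock means of 0.767 and 0.294 CPM, and did not pass. Calls were lost for Col6a3 (adjusted p of 0.0846 when mock replicate 1 was left out and 0.149 for mock replicate 2) and for Col6a5 (0.0902 when mock replicate 1 was left out, 0.130 for mock replicate 2 and 0.0567 for LysoPS replicate 1).

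Among the collagens that attach to the surface of fibrils, 4 of 8 were lower and none was higher, where 12.6% and 12.8% of all tested genes were. Type IX coats cartilage fibrils. Col9a2 stood at 5.84 and 5.78 CPM in mock and 2.72 and 2.45 CPM after LysoPS, and fell (-1.17 ± 0.15, adjusted p = 0.00710). Col9a1 stood at 5.94 and 5.02 CPM in mock and 2.48 and 2.95 CPM after LysoPS (-1.01 ± 0.18, adjusted p = 0.0177), and its adjusted p was 0.0864 when mock replicate 1 was left out. The partner chain Col9a3 was higher expressed per length, at 28.2 ± 1.33 TPM in mock against 4.45 ± 0.112 for Col9a2, and did not pass. It stood at 36.9 and 31.98 CPM in mock and 32.8 and 25.6 CPM after LysoPS (-0.24 ± 0.15, adjusted p = 0.299), and the groups overlapped. Col16a1, whose product lies near fibrils and basement membranes, stood at 103 and 96.6 CPM in mock and 77.2 and 77.8 CPM after LysoPS (-0.37 ± 0.073, adjusted p = 0.0225). Col22a1, a gene of tissue junctions such as that of muscle and tendon, stood at 12.04 and 9.94 CPM in mock and 7.41 and 6.29 CPM after LysoPS (-0.68 ± 0.16, adjusted p = 0.0351), and its implied length differed between libraries by 1.29 times. The adjusted p of Col16a1 was 0.162 when mock replicate 1 was left out and 0.0902 for mock replicate 2, and that of Col22a1 was 0.162 when mock replicate 1 was left out, 0.0623 for mock replicate 2 and 0.0693 for LysoPS replicate 2.

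Col12a1 and Col14a1, whose products sit on type I fibrils, showed no call. Col12a1 stood at 197 and 211 CPM in mock and 197 and 226 CPM after LysoPS (0.05 ± 0.090), and Col14a1 at 28.2 and 30.6 CPM in mock and 28.4 and 30.6 CPM after LysoPS. The groups overlapped for both. Col20a1 stood at 2.50 and 2.45 CPM in mock and 3.17 and 3.55 CPM after LysoPS (adjusted p = 0.131), and it shares 741 bases with a model on the same strand that held more counts, so its reads may have been split.

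Col7a1 was the only gene higher after LysoPS outside the fibrillar class. It encodes the anchoring fibril that ties epithelial basement membranes to the tissue beneath. Col7a1 stood at 145 and 138 CPM in mock and 209.7 and 206 CPM after LysoPS, with a log2 fold change of 0.55 ± 0.064 SE (adjusted p = 0.00502). Both LysoPS libraries lay well above both mock libraries.

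Of the membrane-spanning collagens, 2 of 3 were lower, where 12.6% of all tested genes were. Col23a1 stood at 88.4 and 87.5 CPM in mock and 54.9 and 59.3 CPM after LysoPS, and fell (-0.62 ± 0.077, adjusted p = 0.00594). Col25a1, a neuronal gene whose product is found in amyloid plaques, was rare. It stood at 1.17 and 1.39 CPM in mock and 0.448 and 0.114 CPM after LysoPS (-2.24 ± 0.59, adjusted p = 0.0475), from 36 and 60 counts in mock and 15 and 5 after LysoPS, and its adjusted p was 0.102 when mock replicate 1 was left out, 0.161 for mock replicate 2 and 0.0537 for LysoPS replicate 2. Col13a1 had 8 and 39 counts in LysoPS replicates 1 and 2 and did not pass (-1.30 ± 0.56, adjusted p = 0.157), but was called lower without LysoPS replicate 2 (adjusted p = 0.0154).

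Col26a1, a small collagen known from testis and ovary, had the smallest p-value among the lower genes. It stood at 69.9 and 62.7 CPM in mock and 27.2 and 30.5 CPM after LysoPS (-1.20 ± 0.10, adjusted p = 0.00222). By TPM it went from 55.6 ± 3.53 to 22.1 ± 1.72.

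The remaining genes did not pass the test. Col18a1, whose product lies in basement membranes and is cut to release endostatin, stood at 312 and 309 CPM in mock and 325 and 308 CPM after LysoPS (0.03 ± 0.060, adjusted p = 0.749), and Col15a1 of the same family at 5.19 and 5.50 CPM in mock and 4.57 and 5.10 CPM after LysoPS. The short-chain genes Col8a1, Col8a2 and Col10a1 had log2 fold changes of 0.10, -0.29 and -0.80. Col8a2 lay lower in both LysoPS libraries (12.5 and 12.7 CPM against 14.9 and 15.8). Col10a1 lies within Nt5dc1 on the opposite strand, which held 1584 counts against 103 for Col10a1, so its level is uncertain.

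**Figure D4:**
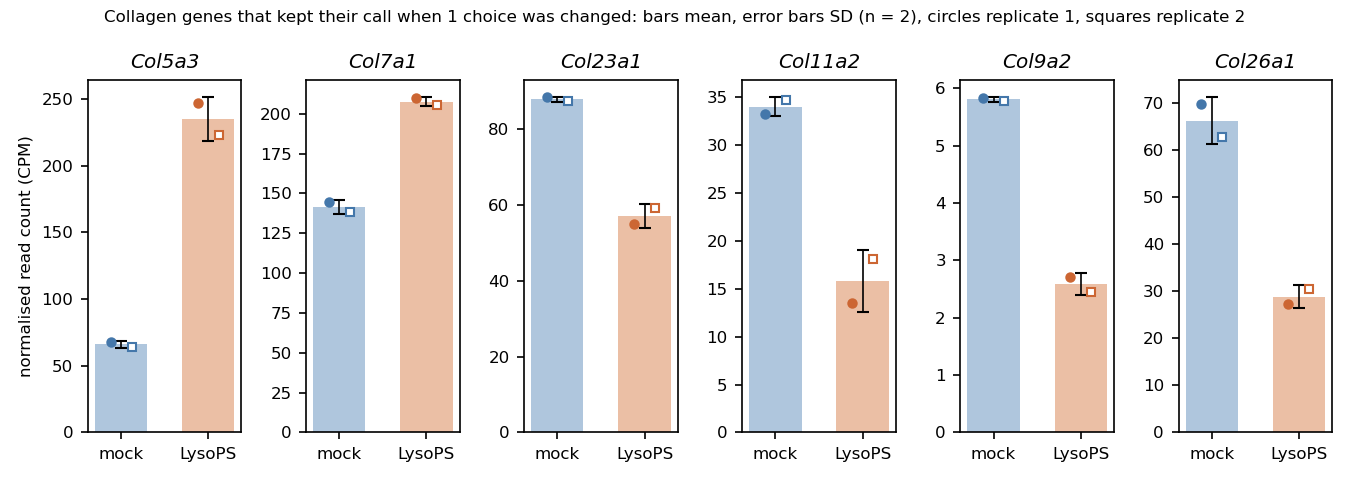
Normalised read counts (CPM; bars are means, error bars SD, n = 2) of the 6 collagen genes whose call held when 1 library was left out and under the other settings apart from the 1.5-fold null. Col5a3 and Col7a1 are higher after LysoPS, and Col23a1, Col11a2, Col9a2 and Col26a1 are lower, with no overlap between groups.

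Genes that modify, export, process, bind and degrade collagen were read from 7 lists. Of 94 such genes, 91 could be tested, and 51 of them were called (56.0%, against 25.5% of all tested genes), 21 higher and 30 lower. Their median log2 fold change was -0.07. Without mock replicate 1 or mock replicate 2, fewer of these genes were called in either direction, and fewer of all tested genes were called as well. By limma on log2 of TPM plus 1 the split was 8 higher and 36 lower, and over all tested genes it was 1353 higher and 3088 lower, in place of 2447 and 2407 by counts.

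Inside the cell, proline and lysine residues of the chains are hydroxylated before the helix folds. Of 15 modifying enzymes, 3 rose, 2 fell and 10 did not pass, with a median of 0.01. Those that rose were 20% and those that fell 13.3%, against 12.8% and 12.6% of all tested genes. The lysyl hydroxylase gene Plod3 stood at 82.7 and 73.5 CPM in mock and 118 and 99.0 CPM after LysoPS (0.47 ± 0.12, adjusted p = 0.0389), and Plod2 also rose (0.41, adjusted p = 0.0403). The prolyl hydroxylase subunit P4ha3 fell (-0.70, adjusted p = 0.00461), as did the galactosyltransferase Colgalt2 (-0.76, adjusted p = 0.00905). The shared subunit P4hb stood at 751 and 713 CPM in mock and 834 and 804 CPM after LysoPS and did not pass (adjusted p = 0.111). Without mock replicate 1 or 2 no modifying enzyme was called higher by edgeR. The adjusted p of Plod3 was 0.0775 when mock replicate 1 was left out, 0.174 for mock replicate 2 and 0.0791 for LysoPS replicate 1, that of Plod2 0.180 when mock replicate 1 was left out, 0.106 for mock replicate 2 and 0.0630 for LysoPS replicate 2, and that of Colgalt2 0.0506 when mock replicate 1 was left out. The implied length of P4ha3 varied by 1.24 times.

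Of 14 genes of folding and export, 4 rose, 2 fell and 8 did not pass, with a median of 0.13. Those that rose were 28.6% and those that fell 14.3%, against 12.8% and 12.6% of all tested genes. Mia2, which helps load bulky cargo into transport vesicles, rose (0.73, adjusted p = 0.00341, implied length varying by 1.23 times), and so did the channel gene Tmem38b (0.90, adjusted p = 0.0104). Sparc, a collagen-binding glycoprotein, fell from 1863 and 1740.1 CPM in mock to 1325 and 1319 CPM (-0.45, adjusted p = 0.00706), and the folding factor Fkbp10 fell by less (-0.29, adjusted p = 0.0444). The collagen chaperone Serpinh1 stood at 361 and 319 CPM in mock and at 509 and 273 CPM in LysoPS replicates 1 and 2, on either side of mock (adjusted p = 0.644). It was called higher without LysoPS replicate 2 (adjusted p = 0.0109), and its log2 fold change was -0.32 without LysoPS replicate 1. The adjusted p of Sparc was 0.0588 when mock replicate 1 was left out. For Fkbp10 it was 0.254 when mock replicate 1 was left out, 0.152 for mock replicate 2 and 0.0860 for LysoPS replicate 2. The list held 2 higher genes without mock replicate 1, mock replicate 2 or LysoPS replicate 1, and 0 lower genes without mock replicate 1.

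Outside the cell, proteinases trim the ends of the chains and lysyl oxidases cross-link them. Of 12 tested genes, 5 rose, 2 fell and 5 did not pass, with a median of 0.13. Those that rose were 41.7% and those that fell 16.7%, against 12.8% and 12.6% of all tested genes. Lox, the founding lysyl oxidase, rose from 521 and 542 CPM in mock to 815 and 869 CPM after LysoPS (0.66 ± 0.063, adjusted p = 0.00297). Pcolce2, an enhancer of the proteinase, rose from 0.779 and 0.740 to 3.76 and 3.04 CPM (2.16 ± 0.23, adjusted p = 0.00410). Its relative Pcolce fell from 133 and 118 to 67.3 and 66.5 CPM (-0.90 ± 0.084, adjusted p = 0.00285). The proteinase Bmp1 rose slightly (0.31, adjusted p = 0.0329) and Adamts2, which removes the other end of the chains, fell slightly (-0.37, adjusted p = 0.0337). The adjusted p of Bmp1 was 0.144 when mock replicate 1 was left out, 0.200 for mock replicate 2 and 0.0698 for LysoPS replicate 1, and that of Adamts2 was 0.190 when mock replicate 1 was left out, 0.130 for mock replicate 2 and 0.0700 for LysoPS replicate 1. Without mock replicate 1 or 2 there were 2 higher genes and 1 lower gene in this list.

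Partners in the matrix were mostly lower. Of 14 proteoglycans and glycoproteins found with fibrils, 7 were lower, 2 higher and 5 did not pass, with a median of -0.58. The lower genes were 50% and the higher ones 14.3%, against 12.6% and 12.8% of all tested genes. Tnxb, which spaces fibrils, fell from 45.6 and 45.6 to 14.8 and 16.8 CPM (-1.53, adjusted p = 0.00107), and Prelp from 104 and 96.9 to 54.2 and 52.5 CPM (-0.91, adjusted p = 0.00216). Tenascin C, Tnc, rose from 426 and 428 to 713 and 722 CPM (0.75, adjusted p = 0.00141) and periostin, Postn, rose as well (0.58, adjusted p = 0.00782), though Postn was at 0.0626 when mock replicate 2 was left out. Of 16 partners of type IV in basement membranes 9 were lower, 2 higher and 5 did not pass, with a median of -0.37. Here the lower genes were 56.25% and the higher ones 12.5%, against the same shares of all tested genes. The laminin chain Lamc3 fell from 13.96 and 12.7 to 3.29 and 3.16 CPM (-2.05, adjusted p = 0.00104, implied length varying by 1.23 times), and nidogen 2, Nid2, from 205 and 208 to 92.3 and 102 CPM (-1.09, adjusted p = 0.00131). Perlecan, Hspg2, rose slightly (0.32, adjusted p = 0.0195), with an adjusted p of 0.147 when mock replicate 1 was left out and 0.106 for mock replicate 2.

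Among the receptors most calls were lower, and among the degrading enzymes calls went both ways. Of 9 tested collagen receptors 5 were lower, 1 higher and 3 did not pass, with a median of -0.48. The lower receptors were 55.6% and the higher one 11.1%, against 12.6% and 12.8% of all tested genes. Mrc2, which takes up collagen fragments, fell from 249 and 250.2 to 128 and 141 CPM (-0.89, adjusted p = 0.00201). The integrin chain Itga11 fell from 21.6 and 22.1 to 11.1 and 10.7 CPM (-0.997, adjusted p = 0.00327), and the kinase receptor Ddr2 fell as well (-0.56, adjusted p = 0.0104, and 0.0578 when mock replicate 2 was left out). The shared integrin chain Itgb1 rose slightly (0.22, adjusted p = 0.0480), a call lost with 0.289 when mock replicate 1 was left out, 0.203 for mock replicate 2 and 0.0750 for LysoPS replicate 2. Of 11 tested genes of collagen degradation, 4 rose, 3 fell and 4 did not pass, with a median of 0.20. Those that rose were 36.4% and those that fell 27.3%, against 12.8% and 12.6% of all tested genes. The collagenase gene Mmp13 stood at 6.49 and 5.90 CPM in mock and 135 and 131 CPM after LysoPS (4.42 ± 0.094, adjusted p = 0.000248), and the gelatinase gene Mmp9 at 2.50 and 1.25 CPM in mock and 65.5 and 54.4 CPM after LysoPS (5.03 ± 0.33, adjusted p = 0.00107). Cathepsin K, Ctsk, fell (-0.49, adjusted p = 0.0105), as did the surface protease Fap (-0.65, adjusted p = 0.0175). Both calls were lost in a fit without a mock library. The adjusted p of Ctsk was 0.0823 when mock replicate 1 was left out and 0.0501 for mock replicate 2, and that of Fap was 0.0848 when mock replicate 2 was left out. The count of lower degradation genes was 1 without mock replicate 1 and 0 without mock replicate 2.

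**Figure D5:**
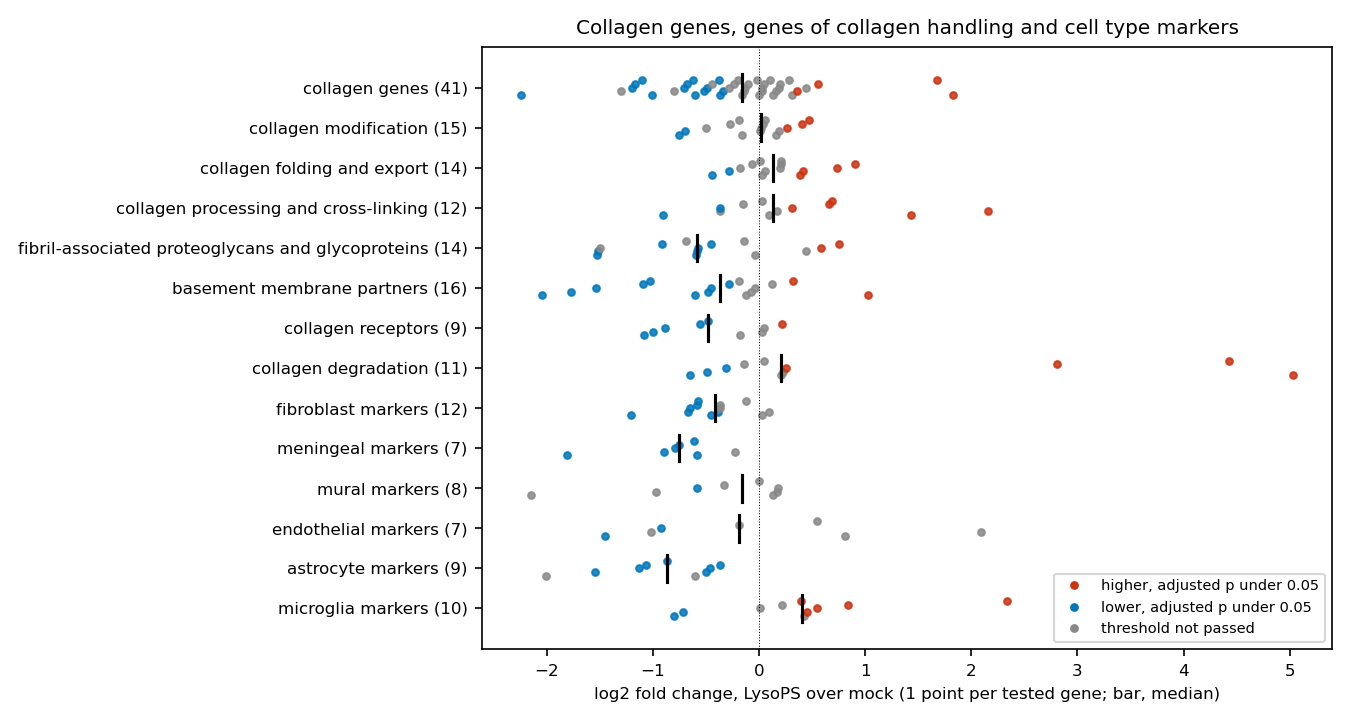
Log2 fold changes of the collagen genes, of the 7 lists of collagen handling and of 6 marker lists, with 1 point per tested gene, the median as a bar and the number of tested genes in brackets. The matrix partners, the receptors and the fibroblast, meningeal and astrocyte markers have medians below 0, and the microglia markers a median above 0. Dcn, Lum, Fn1 and Fap are fibroblast markers that also belong to a list of collagen handling.

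Markers of other cell types moved in the same libraries, and their part in the collagen results was not tested. Of all tested genes 12.8% were higher and 12.6% lower. Of 12 fibroblast markers other than collagens 7 were lower and none higher, with a median of -0.42, and their summed level was 6657 and 6724 CPM in mock and 4435 and 4748 CPM after LysoPS. Fn1, a member of that list, made up most of the sum. Dcn, Lum and Fn1 also belong to the list of genes found with fibrils, and Fap to that of collagen degradation. All of these were lower, so the lists are not separate observations. Pdgfra, a receptor that marks fibroblasts, stood at 243 and 252 CPM in mock and 238 and 268 CPM after LysoPS and did not pass. Pdgfrb, shared by fibroblasts and mural cells, stood at 92.4 and 92.9 CPM in mock and 85.5 and 84.3 CPM after LysoPS and did not pass. Of 7 meningeal markers 6 were lower (median -0.75), with sums of 958 and 951 CPM in mock and 647 and 588 CPM after LysoPS. Of 8 tested mural markers 1 was lower (sums of 797 and 761 CPM in mock and 840 and 789 CPM after LysoPS), and the list's sum came mostly from the smooth muscle genes Acta2 (480.5 and 457 CPM in mock, 537 and 490.4 CPM after LysoPS) and Tagln (268 and 260.0 CPM in mock, 266 and 261 CPM after LysoPS), which did not pass. The pericyte gene Rgs5 was near 0, at 1.85 and 1.71 CPM in mock. Of 7 tested endothelial markers 2 were lower, Cdh5 (306 and 296 CPM in mock, 147 and 169.8 CPM after LysoPS, adjusted p = 0.00309) and Kdr (29.5 and 30.7 CPM in mock, 9.89 and 12.03 CPM after LysoPS, adjusted p = 0.00238). None was called higher, and the log2 fold changes of the list ranged from -1.45 to 2.09. Both LysoPS libraries lay above both mock libraries for 3 endothelial markers and below them for 3. Of all tested genes 32.5% lay above and 34.5% below. Cdh5 made up most of the list's sum, Cldn5 and Tie1 were near 0 (at most 0.0649 and 0.195 CPM in any library), and the list summed to 342 and 336 CPM in mock and 166 and 191 CPM after LysoPS. Astrocyte markers were lower in 7 of 9 cases (median -0.87), with sums of 10806 and 9690 CPM in mock and 5036 and 5751 CPM after LysoPS. The labelled cell type was present by its markers. All 10 microglia markers were detected, 5 were higher and 2 lower (median 0.41), and they summed to 2406 and 2136 CPM in mock and 2681 and 2341 CPM after LysoPS.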

How the data were processed

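Per the submitters' processing notes, reads were handled with FastQC 0.11.2, Trimmomatic 0.36, HISAT2 and StringTie on GRCm38, while the parameters, annotation release and counting program are not given in the sources used here. As deposited, and per the file headers, 1 deposited table gives a raw count, a TPM value and an FPKM value for each of 51826 gene models and 4 libraries. Strand was not stated. Of the 41 collagen models, 40 had the coordinates of GENCODE M21.

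Counts were fitted over the whole table with edgeR 4.0.16 (limma 3.58.1, R 4.3.3), using the quasi-likelihood F test with 2 residual degrees of freedom, filterByExpr defaults and TMM scaling (factors 0.966 to 1.04). SE is the log2 fold change divided by the root of F. The deposited FPKM was used only for implied transcript lengths (count over FPKM, flagged above 1.2 times between libraries). The deposited TPM was used for levels between genes.

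Collagen types I, II, III, V, XI, XXIV and XXVII were called fibrillar and type IV basement membrane. Collagen genes past the threshold, the 2 of highest TPM in each class and their partner chains are given by library, and of each of the 7 pathway lists up to 2 genes in each direction with the smallest p, plus 7 set genes. Some genes that the rule names are not reported here. The genes, lists and rule were chosen with earlier results of these data known. Gene lists for 8 cell types served as markers. A few other genes were picked out once their values were known.

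The comparison of LysoPS with mock was tested on simulated data of 19057 genes. With dispersion on the fitted trend it recovered 8 of 67 genes changed 1.5-fold, 37 of 67 changed 2-fold and 58 of 66 changed 4-fold, with 2 false among 105 calls. With each gene's own fitted dispersion it recovered 2 of 67, 31 of 67 and 57 of 66, with 26 false among 116 calls. Far fewer genes were changed in the simulation than the 4854 called in the data. The adjustment is then stricter, so these recovered shares do not carry over to the data. Alternatives were DESeq2 1.42.0 and its size factors, no filter, a filter at 5 CPM in 2 libraries, limma-voom, a replicate block, each library left out and a 1.5-fold null. A robust dispersion and limma on log2(TPM + 1) were added after the data were seen.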

Additional observations from a re-analysis of the deposited data

How the results depend on the processing

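With another scaling, filter or test the collagen counts stayed within 1.5 times of 4 higher and 14 lower genes, apart from the settings named here. When 1 library was left out there were 2 to 3 higher and 4 to 14 lower collagen genes, the low counts coming without a mock library. Against a 1.5-fold null, where 5.58% of all tested genes were called, there were 1 higher and 2 lower, and by limma on log2(TPM + 1) 2 higher. The median log2 fold change of the collagen genes was -0.20 with the stricter filter, -0.28 by limma on log2(TPM + 1) and between -0.22 and -0.15 when 1 library was left out. Over all tested genes the median by limma on log2(TPM + 1) was -0.14. The collagen share differed by -0.196 points of raw counts, without TMM scaling, and by -0.0962 points of TPM. Of the genes that handle collagen, 9 to 22 were higher when 1 library was left out. Against a 1.5-fold null 5 were higher and 11 lower, and 8 were higher by limma on log2(TPM + 1). Of the collagen genes that did not pass, 5 gained a call under at least 1 setting, namely Col1a1, Col1a2, Col5a2, Col4a5 and Col13a1. By limma on log2(TPM + 1) the calls of Col2a1, Col6a5, Col24a1, Col25a1 and Col27a1 were lost.

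The libraries of both groups carry the replicate numbers 1 and 2, but the labels tie no numbers together, and deviations of same-numbered libraries correlated at 0.119. With the replicate number as a block 18 collagen genes were called, 4 higher and 14 lower, and 16 of these shared their call with the fit without a block. Col24a1 (adjusted p = 0.0656) and Col25a1 (0.0523) lost their call, and Col1a2 (lower, 0.0275) and Col5a2 (higher, 0.0341) gained one, as did P4hb (higher, 0.0432). The block gave 23 higher and 33 lower genes among those that handle collagen, and called 5433 genes of all.

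The sign of the log2 fold change turned for genes that did not pass the test, and the cause was not tested. By limma on log2(TPM + 1) it was -0.19 for Col12a1, -0.15 for Col14a1, -0.16 for Col18a1, -0.14 for Col3a1, -0.0174 for Col6a1, -0.0493 for Col6a2, -0.018 for Col6a4, -0.00371 for Col6a6, -0.0746 for Col8a1 and -0.00987 for P4hb. The median over all tested genes by that fit was -0.14. With the stricter filter the log2 fold change was -0.0162 for Col14a1. When 1 library was left out it ranged from -0.0477 to 0.14 for Col12a1, -0.0541 to 0.0644 for Col14a1, -0.0113 to 0.0702 for Col18a1 and -0.00781 to 0.0652 for Col3a1, and from -0.0407 to 0.65 for Col4a3, -0.0466 to 0.00339 for Col5a1, -0.46 to 0.58 for Col6a6, -0.00726 to 0.198 for Col8a1 and -0.32 to 0.59 for Serpinh1. Genes under about 1 CPM, such as Col6a6 and Col24a1, are limited by depth, and with 2 libraries a group small changes may be missed.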

Other observations

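The markers of the remaining cell types belonged to no comparison above. Of all tested genes 12.8% were higher and 12.6% lower. Of 6 oligodendrocyte lineage markers 3 were higher and none lower, with sums of 246 and 240 CPM in mock and 285 and 273 CPM after LysoPS. Of 5 choroid plexus markers 2 were higher, and the thyroxine carrier Ttr went from 117 and 121 CPM to 972 and 749 CPM (log2 fold change 2.85 ± 0.14 SE, adjusted p = 0.000532).

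A few genes of the lists differed widely between replicates of a group. Cx3cr1, a microglial chemokine receptor, stood at 132 CPM in mock replicate 1 and 176 CPM in LysoPS replicate 1, but at 13.4 CPM in mock replicate 2 and 19.5 CPM in LysoPS replicate 2. Gja1, the astrocyte connexin, stood at 1450.1 and 619 CPM in mock and 141 and 375 CPM after LysoPS. Among the genes that handle collagen, Colgalt1 stood at 88.6 and 157 CPM in LysoPS replicates 1 and 2 and at 149 and 148 CPM in mock. Serpinh1, described above, had a similar split within the LysoPS pair. No collagen gene of at least 10 TPM showed such a gap. They were picked out once their values were known.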
